A study of Mus musculus with 4 samples.

Results

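Intergenic peaks far from start sites are the 440 XBP1s peaks that lay outside annotated genes, carried no CpG island label and were centred more than 5000 bp from the nearest transcription start site (TSS). They were chosen from the deposited annotation alone, out of 4890 listed peaks, and make up 9.0% of the list (exact 95% Clopper-Pearson interval 8.21 to 9.83%). Of the 608 peaks annotated as intergenic, 93 were left out for a CpG label and another 75 for lying within 5000 bp of a TSS. The members are 49.7% (46.4 to 53.1%) of the 885 peaks of any class that lie beyond that distance. All intervals on shares given here cover counting error only.

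ChIP-seq (chromatin immunoprecipitation followed by sequencing) was used to map XBP1s in natural killer (NK) cells isolated from mouse spleen. Cells had received 50 ng/ml of IL-15, the cytokine that keeps NK cells alive, for 1 h. The series' design text names Il15TgXbp1f/f mice as the source, a genotype that by its form joins an Il15 transgene with floxed Xbp1 alleles, and the labels give the strain as C57BL/6. No Cre driver, transgene promoter or age of the mice is named in the labels or the design text, and pooling of animals is not stated. The 2 immunoprecipitations and the 2 inputs share this genotype and treatment, so no untreated or Xbp1-deficient group stands beside them.

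The values are 1 combined list of intervals without any value of a single library. There is therefore no replicate error, the depth is unknown, and no comparison of libraries or conditions was possible. The deposited score is 0 for every peak, so the width of an interval in bp is the only quantity per peak, and width is not signal. The sources used here do not tell if the intervals are complete peaks or only stretches common to several peak calls. Differences between classes of peaks below are descriptions of this list, and peaks are not replicates.

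XBP1s is made when the ER stress sensor IRE1 splices Xbp1 mRNA, and it is a basic leucine zipper factor that switches on genes of protein folding, secretion and ER expansion. Its best known sites hold an ACGT core and lie in promoters of those genes. Regions far from promoters are often enhancers, which can act on genes over long distances and are often active in some cell types only, with lineage factors of the RUNX, ETS and T-box families bound there in NK cells. The nearest gene is only a label for such a region, and its regulation was not measured.

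A first look at sequence was possible for 13 of the 440 members, those that overlap a RefSeq start window (250 bases before to 50 after a gene's start, GRCm38.p6). The authors' annotation placed these peaks 5358 bp or more from the starts it used. Of the 13 genes, 3 encode proteins (Pik3ca, Eif2ak1 and Cfap126) and 10 are long noncoding RNAs. Shown are the 6 windows with the longest shared stretch, cut to the bases inside the peak, 5′ to 3′ on the gene's strand. Capitals mark matches on either strand to any of 12 motifs: ACGTGG (XBP1s), TGACGT (ATF and CREB), CACGTG (E-box), CCAAT (NF-Y), GGAAGT (ETS), TGTGGT (RUNX), GGTGTGA (T-box), TGAGTCA (AP-1), TTCNNNGAA (STAT), GGGCGG (GC box) and the CTCF and IRF motifs.
Pik3ca start, chr3:32396815-32397114, plus strand: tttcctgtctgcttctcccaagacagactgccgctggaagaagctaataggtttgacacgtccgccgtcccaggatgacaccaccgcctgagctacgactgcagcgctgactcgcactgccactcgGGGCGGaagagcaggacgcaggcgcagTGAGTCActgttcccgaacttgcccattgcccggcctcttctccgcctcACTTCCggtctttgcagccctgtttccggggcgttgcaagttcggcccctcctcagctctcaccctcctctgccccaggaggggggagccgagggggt
Gm29638 start, chr7:12949735-12950034, plus strand: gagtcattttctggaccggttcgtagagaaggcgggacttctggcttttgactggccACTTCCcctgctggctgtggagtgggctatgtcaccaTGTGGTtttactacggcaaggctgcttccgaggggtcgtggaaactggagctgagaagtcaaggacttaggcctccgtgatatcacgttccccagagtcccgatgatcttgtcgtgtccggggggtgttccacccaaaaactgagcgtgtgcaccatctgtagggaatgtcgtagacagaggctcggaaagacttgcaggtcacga
LOC115487230 start, chr9:78489114-78489411, minus strand: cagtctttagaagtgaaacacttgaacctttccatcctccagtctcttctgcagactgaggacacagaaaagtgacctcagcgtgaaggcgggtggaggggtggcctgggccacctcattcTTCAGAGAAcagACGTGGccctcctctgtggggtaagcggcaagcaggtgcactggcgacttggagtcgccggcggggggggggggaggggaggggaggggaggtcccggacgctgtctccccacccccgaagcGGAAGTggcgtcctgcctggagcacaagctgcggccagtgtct
Eif2ak1 start, chr5:143817542-143817762, plus strand: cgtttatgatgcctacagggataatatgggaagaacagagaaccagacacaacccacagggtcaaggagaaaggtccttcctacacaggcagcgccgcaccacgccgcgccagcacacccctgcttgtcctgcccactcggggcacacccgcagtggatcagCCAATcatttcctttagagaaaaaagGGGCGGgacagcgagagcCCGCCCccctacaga
Gm42141 start, chr5:105495294-105495471, plus strand: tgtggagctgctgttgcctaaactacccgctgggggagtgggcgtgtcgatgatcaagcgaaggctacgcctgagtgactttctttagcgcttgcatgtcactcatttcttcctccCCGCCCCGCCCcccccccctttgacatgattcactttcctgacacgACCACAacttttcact
Gm33199 start, chr8:120786876-120787045, plus strand: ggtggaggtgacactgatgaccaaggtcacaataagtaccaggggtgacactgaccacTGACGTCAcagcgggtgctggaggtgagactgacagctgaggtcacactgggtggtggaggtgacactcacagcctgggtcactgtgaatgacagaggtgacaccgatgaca

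Pik3ca encodes the catalytic subunit of PI 3-kinase, which acts downstream of cytokine receptors. Its whole start window lay inside a 950 bp member that the table assigns to Zmat3, 31024 bp upstream of the Zmat3 start, and it held 1 match each to the ETS, AP-1 and GC box motifs. Eif2ak1, the heme-regulated kinase of the integrated stress response, shared 221 bases with a 292 bp member that the table puts 54246 bp upstream of the gene, with a CCAAT match and GC box matches. The ACGTGG match stood in the start of a noncoding gene next to Eef1a1, together with STAT and ETS matches. Gm33199 starts inside the 172 bp member downstream of Irf8, and its shared bases held TGACGT. Over the full windows of these 13 genes, ACGTGG was in 2 (15.4%), against 8.30% of all 32817 RefSeq start windows. TGACGT was in 1 (7.69%, against 7.51%) and CACGTG in 0 (7.15% of all windows). ETS matches were in 6 (46.2%, against 23.8%), RUNX matches in 4 (30.8%, against 16.8%), T-box matches in 3 (23.1%, against 3.98%) and CCAAT in 6 (46.2%, against 37.4%). AP-1 and STAT matches were in 1 each (7.69%, against 5.20% and 8.29%), GC boxes in 5 (38.5%, against 35.6%), and CTCF and IRF matches in 0 (1.48% and 3.43% of all windows). Many of these matches lie in window bases outside the peak. Within the bases shared with a peak, ETS matches were in 4 windows, GC boxes in 3, RUNX matches in 2, matches to the XBP1s, ATF and CREB, NF-Y, AP-1 and STAT motifs in 1 each, and T-box matches in 0. Motifs can overlap each other, a match is a run of letters and not a site, and with 13 windows these shares are loose. The sequence of the remaining members was not analysed here. Since the 13 were taken for meeting a RefSeq gene start, their motif shares do not describe the members as a class.

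The intergenic distal peaks were narrow. Their median width was 303.5 bp (95% order-statistic interval 292 to 318, interquartile range 222 to 449.75), close to the 299 bp (283 to 317) of the 328 intron peaks that are just as far from a TSS and carry no CpG label. The 2571 promoter peaks, which were not filtered for a CpG label, had a median of 404 bp (396 to 414). For the 168 intergenic peaks that the rule left out it was 328.5 bp (302 to 355). These intervals treat listed peaks as independent draws and measure no spread between replicates. Widths ran from 11 to 1774 bp, 68 members (15.5%) were under 200 bp, and 11 (2.5%) reached 1000 bp, as did 196 promoter peaks (7.62%). Together the members cover 163 kb.

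**Figure D1:**
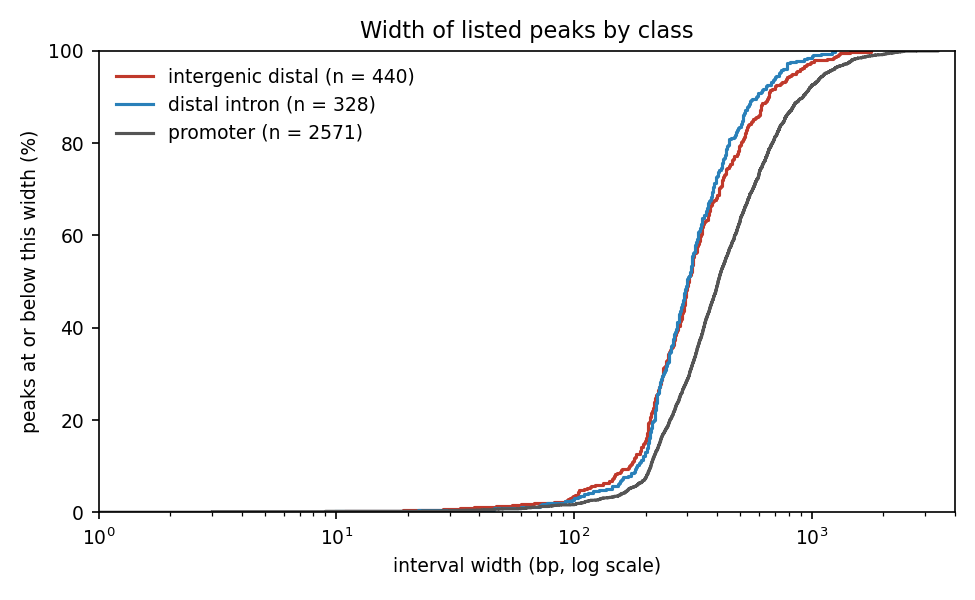
Cumulative share of peaks (y axis, %) at or below a given interval width (x axis, bp, log scale) for 440 intergenic distal, 328 distal intron and 2571 promoter peaks. The curves of both distal classes run together, with medians of 303.5 and 299 bp, and the promoter curve lies to their right, with a median of 404 bp.

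Most members stood well away from a gene start. The median distance was 26009.5 bp (interquartile range 13626.8 to 54040.2), and 250 members (56.8%) lay 10 to 50 kb away, 64 (14.5%) nearer, 73 (16.6%) at 50 to 100 kb and 53 (12.0%) beyond 100 kb. Upstream positions held 263 members (59.8%, 55.0 to 64.4%), against 84 of the distal intron peaks (25.6%, 21.0 to 30.7%), for which a place downstream of the start is usual since introns follow it. The upstream share was 71.9% within 10 kb, 62.8% at 10 to 50 kb, 50.7% at 50 to 100 kb and 43.4% farther out. A member downstream of its nearest TSS must lie past the end of that gene to be intergenic. The rule thus limits downstream positions close to a start, and its part in these shares was not tested. Width changed little with distance, with medians of 294, 310.5, 300 and 290 bp in the same order, although 17 of the 53 most distant members were under 200 bp. The members farthest from the TSS in the table were a pair upstream of Acvr2a, which encodes an activin receptor, though an end of the noncoding RefSeq gene Gm13481 was 12226 and 16091 bp from them. One was 159 bp wide at 344618 bp and the other 420 bp wide at 340753 bp. At the 5000 bp limit, the members just inside it were a 655 bp peak at Gpr84 (5011 bp), a 226 bp peak at Mir23a (5017 bp) and a 203 bp peak at Cd300c (5081 bp). Those just outside were at Rhoq (4994 bp, 226 bp wide), Amn1 (4941 bp, 211 bp wide) and Bmf (4916 bp, 304 bp wide).

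**Figure D2:**
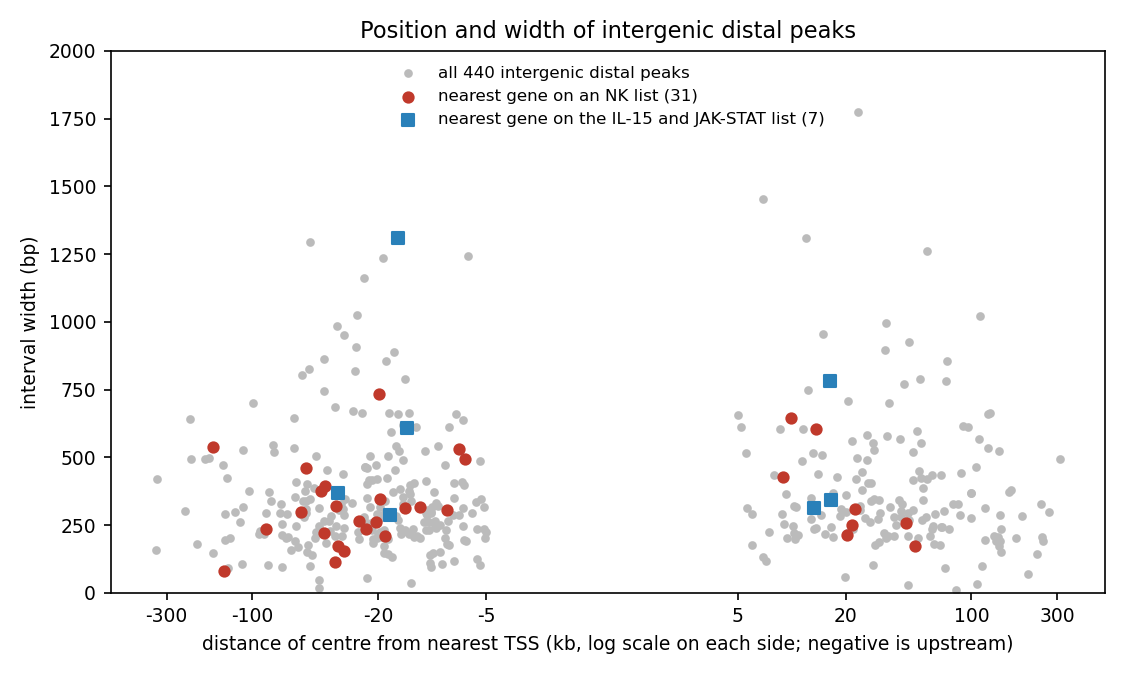
Signed distance of each peak's centre from the nearest TSS (x axis, kb, log scale on each side) against interval width (y axis, bp) for all 440 members, with those whose nearest gene is on 1 of 3 NK gene lists or on the IL-15 and JAK-STAT list coloured. The 31 NK-list members lie across the whole range of widths up to 734 bp, and the widest coloured member is the 1309 bp peak of Il2rb.

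The table's word intergenic depends on its gene models. By RefSeq, 105 members (23.9%, 19.95 to 28.1%) were centred inside a gene, of which 79 lay in long noncoding RNA genes only, 21 in protein-coding genes, 4 in antigen receptor loci and 1 in a pseudogene. A RefSeq gene end stood within 1000 bp of 59 members (13.4%, 10.4 to 17.0%), against 14 distal intron peaks (4.27%, 2.35 to 7.06%). The intron peaks lie by definition inside an annotated gene and more than 5000 bp from a TSS, which limits their closeness to gene ends. The part of that definition in the contrast was not tested. The median distance to the body of the nearest protein-coding gene was 18899.5 bp. Members inside and outside RefSeq genes had medians of 300 and 305 bp. The 21 in coding genes included a 1309 bp peak in Il2rb, a 1024 bp peak in Bicral, a 638 bp peak in Utrn, a 537 bp peak in Bach2, a 409 bp peak in Spn and a 237 bp peak in Icam2. Spn (CD43) and Icam2 are leukocyte surface glycoproteins. These examples were picked after their values were seen.

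The 10 widest members were not all at genes of one kind. The widest, 1774 bp at chr2:144164926-144166699, was nearest to the noncoding gene Gm5535 and inside another, Banf2os. The next was 1453 bp wide near the noncoding 4930578M01Rik. A 1310 bp peak that the table gives to the microRNA gene Mir7683 lay 2575 bp from Slamf7, an activating NK receptor. The 1309 bp peak at chr15:78509960-78511268 was nearest to Il2rb. Near B4galt5 and Smu1 the widths were 1235 and 1160 bp. B4galt5 encodes a Golgi galactosyltransferase. For the peak at Smu1, RefSeq's nearest coding gene was another of this kind, B4galt1, at 22819 bp, against 23898 bp to the Smu1 TSS. An end of the noncoding Gm34213 was closer, at 5007 bp. A 55 bp member 853 bp away had Smu1 as the nearest coding gene, at 23045 bp. The others were 1294 bp near the noncoding 5031425F14Rik, 1263 bp near Rbx1, a subunit of cullin ubiquitin ligases, 1243 bp near Mir23a and 1024 bp near Bicral, a subunit of chromatin remodelling complexes.

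Protein-coding genes were the nearest gene of 346 members (78.6%, 74.5 to 82.4%), and RefSeq's nearest gene body gave the same gene for 268 of these (77.5%). Noncoding genes were nearest to 91 members (20.7%), which had a median width of 326 bp (286 to 408) against 300 bp (287 to 316) for those at coding genes. The members fell to 339 genes, 273 of them with a single member. In all, 267 of 21900 protein-coding genes, or 1.22%, were the nearest gene of at least 1 member, whereas 15.9% had a listed peak within 5000 bp of their start. Of those 267 genes, 84 (31.5%, 25.9 to 37.4%) also had such a near peak. For the 246 genes nearest to distal intron peaks, the count was 66 (26.8%, 21.4 to 32.8%).

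A group of members lay at genes of NK identity and function. Across 3 lists (receptors and identity, lineage transcription factors, effector genes), 19 of 110 genes (17.3%, 10.7 to 25.7%) had at least 1 member, 31 members in all, beside the 1.22% of all protein-coding genes. The lists were chosen with earlier results of these data in view, so the share is a description and no test was made. By RefSeq's nearest coding gene, 21 of the 110 (19.1%) had a member, beside 1.55% of all coding genes. These were 9 of 46 receptors (19.6%), 9 of 34 transcription factors (26.5%) and only 3 of 30 effectors (10.0%). Other lists reached like shares by RefSeq. They were 6 of 33 IL-15 and JAK-STAT genes (18.2%), 5 of 26 immediate early and mRNA turnover genes (19.2%) and 6 of 46 ER genes (13.0%). The order of the lists thus depends on how peaks are assigned. Intergenic space differs between the lists: the median flanking space per gene was 57.3 kb for the receptors, 223 kb for the transcription factors and 42.5 kb for the effectors, against 38.0 kb over all coding genes, and its part in the shares was not tested. Of 20 B and plasma cell markers and 20 myeloid markers, none had a member, which allows a share of up to 16.8% of each list. Of 20 T cell markers, 1 had members by deposited nearest gene. It was Bcl11b, a zinc finger factor of T cell and innate lymphoid lineages, with peaks of 453 and 223 bp upstream. By the same names, peaks within 5000 bp of the start were at 0 of the B, 1 of the myeloid and 2 of the T cell markers. Both T cell counts leave out Trac, the T cell receptor alpha constant region on that list, because members near it are named for Dad1. The nearest, 346 bp wide, was centred 4740 bp from the Trac start and 1063 bp past its end.

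**Figure D3:**
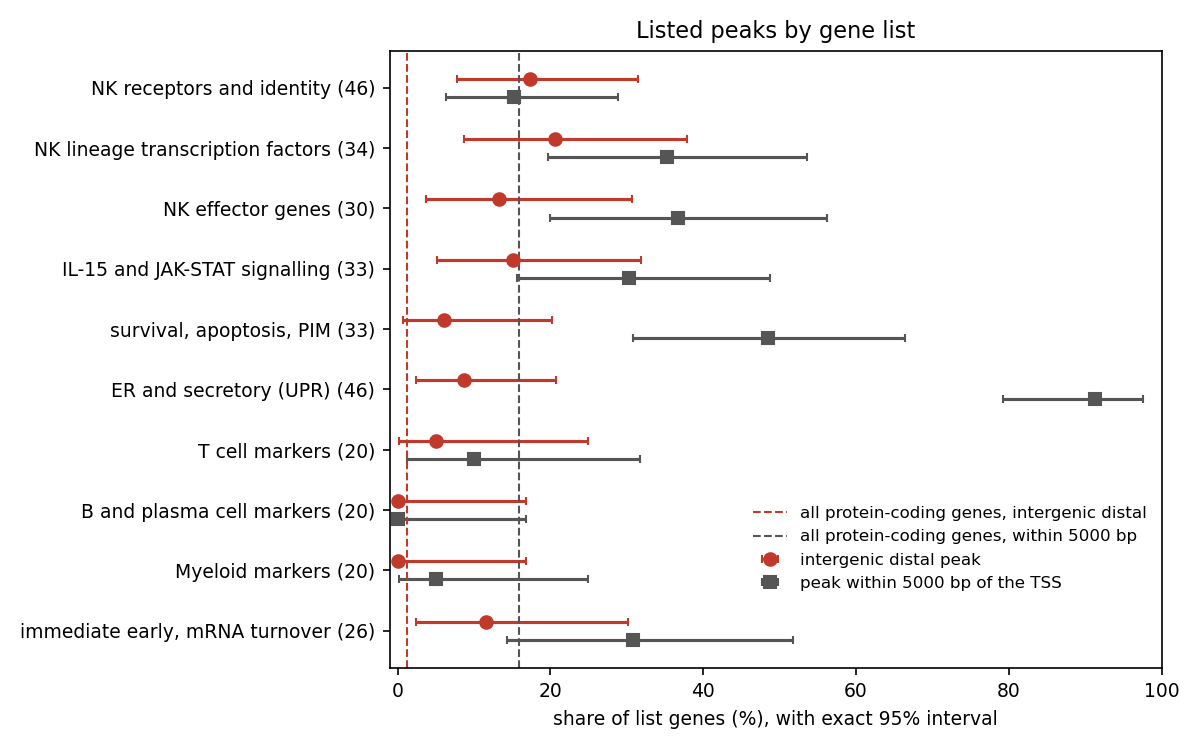
Share of the genes on each list (x axis, %, with exact 95% intervals; number of genes in brackets) that are the nearest gene of an intergenic distal peak (red) or have any listed peak within 5000 bp of the TSS (grey), with dashed lines at the shares over all 21900 protein-coding genes, 1.22 and 15.9%. The ER list stands highest for near peaks, at 91.3%, while its share with a distal member is 8.70%, below the 20.6% of the NK transcription factors, with overlapping intervals.

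Among the receptors and identity genes, 8 of 46 (17.4%, 7.82 to 31.4%) had 9 members. Klri2, a lectin-like killer cell receptor, had the widest, 529 bp at 7109 bp upstream. Tyrobp, the DAP12 adaptor of activating receptors, had a 345 bp peak 19443 bp upstream. Itgam, the CD11b integrin of mature NK cells, had 318 bp at 11699 bp upstream, and Ncr1, which encodes NKp46, had 314 bp at 14166 bp upstream. Narrower members were at the chemokine receptor genes Cxcr4 (257 bp) and Ccr2 (171 bp) and at Thy1 (234 bp). Only 2 of these 8 genes also had a peak within 5000 bp of the start, and 7 of the 46 (15.2%) had one at all, near the 15.9% of all coding genes.

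Lineage transcription factors held 12 members at 7 of 34 genes (20.6%, 8.70 to 37.9%), and 5 of the 7 had a near peak as well, as did 12 of all 34 (35.3%). Irf8, an interferon regulatory factor with a role in NK cells as well as myeloid cells, had a 734 bp member 19826 bp upstream and the 172 bp member 48322 bp downstream shown above in sequence. The only peak listed at the Irf8 start was 3 bp wide. Eomes, the T-box factor of mature NK cells, had a 646 bp member 9941 bp downstream, and Bach2, a repressor of effector programmes, a 537 bp member 166647 bp upstream of its TSS that RefSeq places inside the gene. Runx3 carried 3 members, of 462, 222 and 208 bp at 50649, 40040 and 18278 bp upstream, besides a 432 bp promoter peak. Runx1 had a 377 bp member in an MLT1L element at 41294 bp upstream. Nfil3, which is needed early in NK development, had members of 304 and 236 bp at 8275 and 84328 bp upstream, both in LTR elements. For the 236 bp member, RefSeq's nearest coding gene was Ror2, at 43950 bp. Jun, an AP-1 subunit, had members of 300 and 82 bp.

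Further lineage genes came in by RefSeq position alone. The 6 members that the table assigns to the noncoding Gm17746 have Id2, an inhibitor of E proteins required for NK cells, as the nearest coding gene, between 94632 and 342652 bp from its body. They spread over chr12:25190601-25438990, and the widest were 1020 and 665 bp. For the noncoding 1700016G22Rik, 3 members of 749, 285 and 190 bp had Klf6 as the nearest coding gene, the widest at 15777 bp.

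Effector genes with members were 4 of 30 (13.3%, 3.76 to 30.7%), and they held 10 members. Near peaks stood at 11 of the 30 (36.7%). Fasl, the death ligand, had a 604 bp member 13581 bp downstream and narrower ones of 249 bp (21609 bp downstream) and 261 bp (20578 bp upstream). For the 261 bp member, the nearest coding gene body in RefSeq was Suco, at 7039 bp. Ccl3, an inflammatory chemokine, had 429 and 212 bp members 8990 and 20394 bp downstream. Fasl and Ccl3 had no peak within 5000 bp of the start. Il12rb2, the signalling chain of the IL-12 receptor, had a 396 bp member 39399 bp upstream, although the nearest coding gene body in RefSeq was Il23r. Gzmb, a granule protease of killing, had 4 members of 266, 156, 320 and 113 bp between 25572 and 34683 bp upstream and a 503 bp promoter peak.

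**Figure D4:**
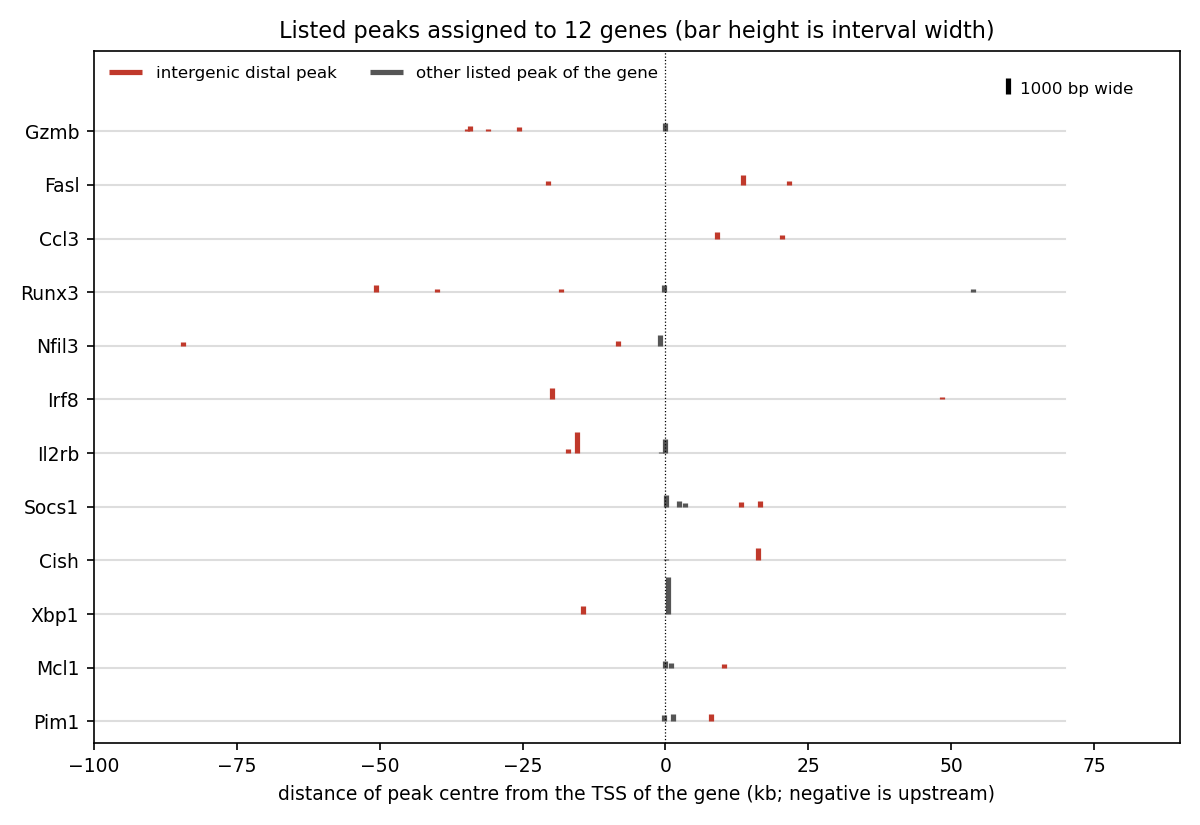
Every listed peak that the table assigns to each of 12 genes, by distance of its centre from the TSS (x axis, kb); bar height is interval width (scale bar 1000 bp), red for intergenic distal members and grey for other peaks. Gzmb and Runx3 have several members on the upstream side only. Fasl has members on both sides without a peak at the start, and RefSeq's nearest coding gene for the upstream one is Suco. The 1309 bp member of Il2rb is wider than its 853 bp promoter peak and lies 1007 bp inside the RefSeq gene.

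In the IL-15 and JAK-STAT list, 5 of 33 genes (15.2%, 5.11 to 31.9%) had 7 members, and each of the 5 also had a peak within 5000 bp of its start, as did 10 of all 33 (30.3%). Il2rb, the chain shared by the IL-2 and IL-15 receptors, had the 1309 bp member 15548 bp upstream and a 287 bp member 17116 bp upstream. RefSeq places the wide one inside Il2rb, 1007 bp from the gene's boundary on the upstream side of the table's TSS, and the other 561 bp beyond that boundary. Both are therefore distal by the table's TSS and close to the upstream limit of the gene in RefSeq. Cish, a feedback inhibitor of IL-15 signalling, had a 780 bp member 16276 bp downstream, next to a promoter peak of only 102 bp. Socs1, another such inhibitor, had 343 and 313 bp members 16594 and 13279 bp downstream. Ifngr1, an interferon gamma receptor chain, had 608 bp at 13752 bp upstream, and Jak1, the kinase that signals with IL-15 receptors, 369 bp at 33447 bp upstream. At Cish, Ifngr1 and Jak1 the widest member was wider than every listed peak within 5000 bp of the start, while at Socs1 the promoter peak was 734 bp. At Il2rb the wide member exceeded the 853 bp promoter peak, with the RefSeq boundary named above near it.

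The survival list gave 2 of 33 genes (6.06%, 0.743 to 20.2%), while 16 (48.5%) had a near peak. Pim1, a survival kinase induced by cytokines, had a 434 bp member 7965 bp downstream, beside near peaks of 423 and 454 bp. Mcl1, the BCL2 family protein on which NK cells depend, had a 248 bp member 10235 bp downstream and near peaks of 405 and 307 bp. No member had Pim2 or Pim3 as its nearest gene.

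The ER and secretory genes, the class most associated with XBP1s, had mostly near peaks. These stood at 42 of 46 (91.3%, 79.2 to 97.6%), and members at 4 (8.70%, 2.42 to 20.8%, beside 1.22% of all coding genes). All 4 had a near peak, and it was much the wider. Xbp1 itself had a 490 bp member 14471 bp upstream, in a SINE of the ID4 type, against 2296 bp for the peak at its start. Eif2ak3, the PERK sensor, had 399 bp at 13298 bp upstream, against 1430 bp. Creb3l2, a relative of ATF6, had 259 bp at 21834 bp upstream, against 2414 bp. Ssr3, a subunit of the translocon-associated TRAP complex, had 47 bp at 42690 bp upstream, against 1705 bp. By RefSeq, a 955 bp member listed under Mir704 lay 7430 bp from the disulfide isomerase gene Pdia4, and a 183 bp member listed under Scml4 lay 6773 bp from Sec63. The median flanking space of this list was 27.95 kb, less than over all coding genes, and its part in the share with members was not tested.

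Among immediate early and mRNA turnover genes, 3 of 26 (11.5%) had 4 members and 8 (30.8%) a near peak. Dusp6, an ERK phosphatase, had 313 bp at 5622 bp and 379 bp at 165350 bp downstream. Nfkbiz, an atypical I kappa B protein, had 178 bp at 67316 bp downstream, and Zfp36l2, an mRNA decay factor, 176 bp at 6029 bp downstream. The median flanking space of this list was 171 kb.

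A minority of members lay near each other. When centres within 10000 bp were joined, 342 members stayed alone. The other 98 (22.3%, 18.5 to 26.5%) fell into chains, 36 of 2 members, 6 of 3 and 2 of 4. Another listed peak of any class stood within 10000 bp of 124 members (28.2%, 24.02 to 32.6%) and of 68 distal intron peaks (20.7%, 16.5 to 25.5%), with overlapping intervals. Chains were not counted for the intron peaks. The chains of 4 were at Gzmb, over 9300 bp, and at Il2rb, over 6169 bp. At Il2rb the 1309 and 287 bp members were followed by 243 and 239 bp peaks that the table gives to C1qtnf6, though they lay 1437 and 4388 bp from the Il2rb gene. The other chains were at Smndc1 and Mirt1 (345, 986 and 189 bp over 13130 bp), Ppp1r3b (598, 424 and 385 bp over 4899 bp), Mir181c and Mir23a (664, 1243 and 226 bp over 11504 bp), Rplp1 (192, 205 and 329 bp over 6213 bp) and, in 2 places, under the name of Dad1.

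Both chains named for Dad1, which encodes an oligosaccharyltransferase subunit, lay at the T cell receptor alpha and delta genes. One held 346, 582 and 222 bp members centred 1063, 3405 and 9408 bp past the higher-coordinate end of Trac, the alpha constant region. The other held a 99 bp member 4152 bp before Trdc, the delta constant region, and 33 and 463 bp members 543 and 1084 bp past it. The 222 bp member was nearer to Dad1, at 1879 bp from its body, and the 346 and 582 bp members lay 10224 and 7882 bp from it. In the T cell receptor beta locus, an 896 bp member at chr6:41554347-41555242, which the table assigns to Prss2, was centred 6613 bp past Trbc2. No listed peak lay in the T cell receptor gamma locus or in the immunoglobulin heavy, kappa or lambda loci. These loci were looked at after the chains had been seen. By deposited nearest gene, near peaks stood at 2 of the 20 T cell markers, as given above. That count leaves out Trac, although the 346 bp member was centred 4740 bp from its start. The part of any T cells in the preparation was not tested.

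**Figure D5:**
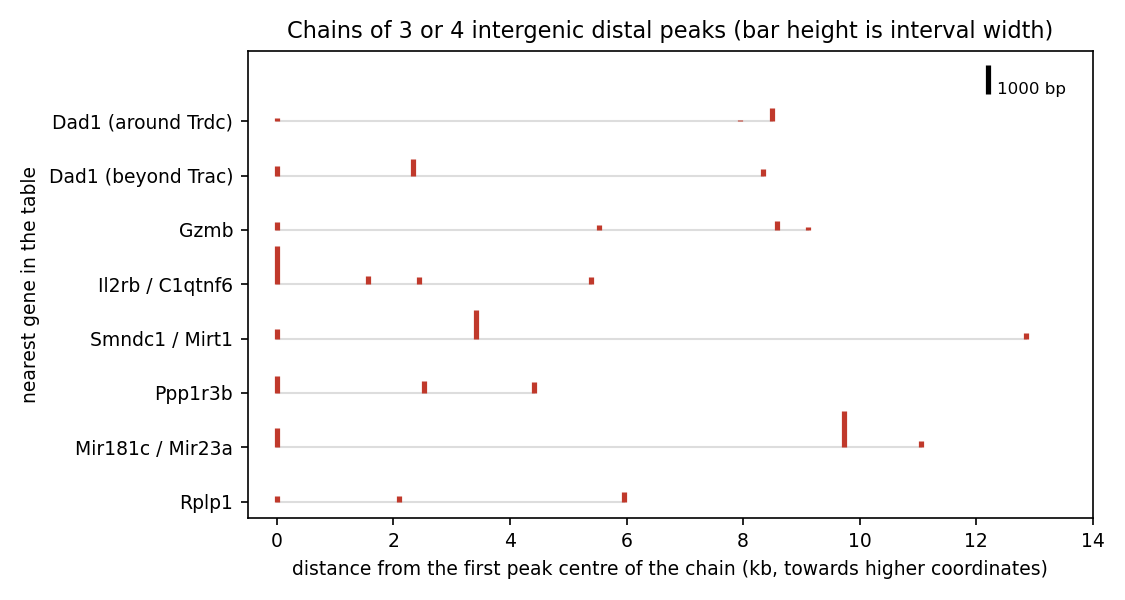
The 8 chains of 3 or 4 members, by distance from the first centre of the chain (x axis, kb); bar height is interval width (scale bar 1000 bp), and names are the nearest genes in the table. The widest member of a chain ranges from 320 bp at Gzmb to 1309 bp at Il2rb.

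Transposable elements and other repeats were named at the centre of 60 members (13.6%, 10.6 to 17.2%) and of 35 distal intron peaks (10.7%, 7.55 to 14.5%). LTR elements, which derive from retroviruses, were the largest class with 28 members (6.36%, 4.27 to 9.07%), against 13 intron peaks (3.96%, 2.13 to 6.68%), with overlapping intervals. Of the 28, 19 were ERVL-MaLR elements, with a median of 284 bp, and the ERV1 and ERVL families had 4 each. LINE elements held 15 members, 10 of them L1, and SINE elements 12, 6 of them B4. Median widths were 287.5 bp in LTR, 237 bp in LINE and 303.5 bp in SINE elements, and 305.5 bp in the 380 members outside repeats. The widest per class were an 856 bp member in an MLT1C element near Irf2bpl, a 621 bp member in an L2 element near Zfp541, the 1243 bp member near Mir23a in an ID_B1 element, a 429 bp member in a DNA transposon near Zfp239, and the 1024 bp member near Bicral in a simple repeat. A low complexity stretch near Lrrc8c held 268 bp, and the unclassed RMER1C element upstream of Itgam 318 bp.

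Members were spread over all autosomes and X. Chromosome 12 held 32 (7.27%) against 144 of the other listed peaks (3.24%), and 11 of these 32 were the members at Gm17746 and Irf2bpl. Chromosome 11, which holds 10.0% of the other peaks, held 24 (5.45%), and the X chromosome 4 (0.909%, against 1.53%).

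Names of microRNA genes were nearest to 17 of the 440 members. The same count was not made for the other listed peaks, so it does not show that such names are commoner here. The widest were 1310 bp at Mir7683, 1243 bp at Mir23a, 955 bp at Mir704 and 857 bp at Mir29b-1. Mir23a, Mir29b-1, Mir181c and Mir142, picked after their values were seen, are known from lymphocytes. Mir23a had 1243 and 226 bp at 6339 and 5017 bp upstream, Mir29b-1 had 857 bp at 18015 bp upstream, Mir181c had 664 bp at 13481 bp upstream and Mir142 had 660 bp at 7405 bp upstream. Mir23a and Mir181c belong to the same chain on chromosome 8. RefSeq lists 2 mature arms for each of the 4 named genes. One arm of each, chosen with no measurement of either, is given with the seed (bases 2 to 8) in capitals, and no seed is shared among the 4 printed.
mmu-miR-23a-3p: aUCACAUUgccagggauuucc
mmu-miR-29b-3p: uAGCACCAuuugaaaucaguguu
mmu-miR-181c-5p: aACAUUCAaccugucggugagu
mmu-miR-142a-3p: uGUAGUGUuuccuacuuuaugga
Other members of this group were 782 bp wide at Mir12196, 707 bp at Mir1929 and 605 bp at Mir147, and the narrowest was 171 bp at Mir5118. The median width of the members nearest to any noncoding gene, 326 bp, is given above, and the levels of these microRNAs were not measured.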

How the data were processed

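Binding of XBP1s in IL-15-treated mouse NK cells was measured by ChIP-seq in 2 immunoprecipitations and 2 inputs, sequenced as 100 bp paired-end reads per the labels' protocols. Per the submitters' processing notes, the tools were HOMER (versions 4.11.1 and 4.11), MACS2 (2.2.7.1), Bowtie2 (2.4.5), FastQC (0.11.9) and Trim Galore (0.6.7), and the builds mm10 and GRCm38. The deposited table is 1 annotated list of 4890 intervals on mm10, per the file header, and the calls it joins and their threshold are not given in the sources used here. Its score, as deposited, is 0 in every row. Positions and signed distances to the TSS in bp are the authors' deposited values, and width is end minus start plus 1.

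Members are peaks annotated as intergenic, without CpG in the detailed annotation, more than 5000 bp from the TSS. Gene bodies and ends, start windows and microRNAs came from RefSeq tables of GRCm38.p6, the assembly of mm10. All 308 entries of 10 gene lists were matched. Distal intron and promoter peaks served for comparison. Shares have exact Clopper-Pearson 95% intervals and medians order-statistic intervals, checked on simulated data. No test was run, since peaks and genes are not replicates. Named are the 10 widest members, every member at a listed gene (in full for the widest of each list), chains of 3 or more, the widest per repeat class, peaks next to the threshold and the most distant; microRNAs, receptor loci and start windows were added after values had been seen. Some items that this rule takes in are left out of the text. The members and lists were chosen with earlier results of these data known. The planned motif search around peak centres was not run, because no genome sequence was used here. Software was SciPy 1.17.1, NumPy 2.4.6, pandas 2.3.3 and matplotlib 3.10.9 under Python 3.11.15.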

Additional observations from a re-analysis of the deposited data

How the results depend on the processing

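Of 23 alternative values, 16 stayed within their interval or within 1.5 times the main count. The 9.0% share of members was 9.92% with a limit of 2000 bp, 7.69% with 10000 bp, 2.58% with 50000 bp and 10.2% with CpG-labelled peaks kept, which follows from the rule. With 50000 bp, repeats fell to 9.52% of members and upstream positions to 47.6%. The median width rose to 330.5 bp when intervals under 200 bp were left out. Members in chains were 75 with 5000 bp and 127 with 20000 bp between centres, and members at NK-list genes 38 by RefSeq's nearest coding gene. Leaving out members inside RefSeq genes, an alternative added after seeing the data, gave 22 at NK-list genes and a median width of 305 bp. The alternatives for the motif search were not run without a genome sequence. No paired analysis was possible because the table has no values of single libraries, and for the same reason no replicate could be left out. Depth is unknown, so absence of a listed peak does not show absence of binding.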

Other observations

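Several genes outside the lists had 3 or more members as nearest gene, 18 in all with those described above, and their members are given as values, chosen after they were seen. Chsy1, a chondroitin synthase gene, had 5 members of 92 to 661 bp, at 70941 to 124073 bp downstream, some of them nearer to Lrrk1 by gene body. Irf2bpl, a relative of the IRF2-binding proteins, had 5 members of 96 to 856 bp on both sides of its start. Tab2, an adaptor of TAK1 kinase signalling, had 3 members of 494 to 701 bp at 99501 to 220389 bp upstream, for which RefSeq's nearest coding gene was Tab2 or Ust. Rgs1, a regulator of chemokine receptor signalling, had 3 members of 104 to 372 bp at 58042 to 81723 bp upstream. Scd2, a fatty acid desaturase gene, had 3 members of 207 to 908 bp, and Lfng, a glycosyltransferase that modifies Notch, 3 of 148 to 316 bp.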
